A study of Mus musculus with 9 samples.

Results

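A set of 10 enzyme genes that make, join and break down threonine, serine, glycine and cysteine was followed across every library of a mouse reprogramming series. The genes were Tdh, Gldc, Shmt1, Shmt2, Mthfd2, Phgdh, Psat1, Psph, Cbs and Cth, and each name stood on 1 row of the 48640 rows of the expression table. The genes other than Cth were chosen by pathway, with earlier results of these data known. Cth was chosen for its higher level in the iPSCs of the YAP cultures, so its values are given as a description and with no test.

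The 9 libraries came from colonies that emerged when mouse embryonic fibroblasts were reprogrammed and cultured for 75 days. The control group holds induced pluripotent stem cells (iPSCs), labelled Oct4:GFP+, of cultures given an empty vector. YAP-culture iPSCs came from cultures that were given, by lentivirus, a vector that encodes YAP, the Yes-associated protein on which the Hippo pathway acts. Their titles say that YAP overexpression had been lost, while their genotype is labelled Oct4:GFP+YAPmCherry+. YAP colonies are the non-pluripotent colonies of the YAP cultures, labelled YAPmCherry+. Each group had 3 libraries. All reprogramming cultures received doxycycline. The YAP colonies stayed on feeder cells in embryonic stem cell medium with doxycycline, and the protocol for iPSCs names feeders and the same medium without it, so the colony type and the doxycycline cannot be told apart. The labels do not say whether replicates were separate cultures, so p-values speak of the spread among these libraries alone, and that spread may be technical.

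Values are FPKM, fragments scaled to transcript length and to the mapped fragments of the library, and summed to between 509321 and 634471 per library. Their read depth is unknown. The 10 naive pluripotency markers summed to 4772 to 6687 FPKM in the iPSC libraries and to 128 to 170 FPKM in the colonies. Dppa5a made up most of the iPSC sums, at 3445 to 5183 FPKM. Nanog alone was 132 ± 22.6 FPKM in the colonies, and the other 9 summed to 12.1 to 13.9 FPKM there, with 6 of them, such as Zfp42 and Esrrb, at means under 1 FPKM. The 15 fibroblast markers, which feeder cells would also carry, summed to 9.56 to 17.7 FPKM in the iPSCs and 40.3 to 47.0 FPKM in the colonies. Thy1 (22.9 ± 5.82 FPKM) and Dcn (8.63 ± 2.22 FPKM) made up most of the colony sum. Only 5 fibroblast markers were tested. Thy1, Dcn, Col1a1 and Col3a1 were called higher in the colonies than in each iPSC group, and Mmp2 was called lower in both comparisons. Of all tested rows 15.8% were called higher and 14.5% lower against the YAP-culture iPSCs, and 14.9% and 17.0% against the control iPSCs. Dcn, Col1a1 and Col3a1 passed the expression filter, a mean of 1 FPKM over all libraries, through the colonies alone. Mmp2 passed it through the iPSCs alone. The calls of all these genes but Thy1 are a description. Of the 15 markers 9, among them Pdgfra, Twist1 and Prrx1, had colony means under 1 FPKM, as 13 had in each iPSC group. Neither list's part in the results below was tested. YAP-culture iPSC replicate 3 stood apart within its group for most members, and values of those it moves most are given with and without it.

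Serine is made from a glycolytic intermediate in steps catalysed by Phgdh, Psat1 and Psph. Shmt1 in the cytosol and Shmt2 in mitochondria split serine into glycine and a folate-bound carbon unit, which Mthfd2 carries further in mitochondria. Mouse pluripotent cells are known for a second source, in which Tdh oxidises threonine and Gldc, part of the glycine cleavage system, passes the carbon of glycine to folate. Cbs and Cth form the transsulfuration route, which turns homocysteine and serine into cysteine.

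Tdh and Gldc, which break down threonine and glycine, were high in all 6 iPSC libraries and low in the colonies. Tdh, threonine dehydrogenase (chromosome 14, 63492347 to 63509092, mm10), was 136, 138 and 124 FPKM in control iPSC replicates 1 to 3. It was 109, 105 and 163 FPKM in the YAP-culture iPSCs and 2.70, 3.56 and 2.56 FPKM in the colonies. The iPSC and colony values did not overlap, and the means were 45.1-fold higher in the control iPSCs and 42.8-fold higher in the YAP-culture iPSCs than in the colonies. On the log2(FPKM + 1) scale, on which every fold change here was fitted and which understates changes of low genes, the change of the colonies against the YAP-culture iPSCs was -4.99 ± 0.18 (SE). The adjusted p in limma was 6.40e-08. Against the control iPSCs the log2 fold change was -5.09 ± 0.18 (adjusted p = 5.70e-08). In these bulk samples fewer cells of a type and less RNA per cell cannot be told apart.

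Gldc, the glycine decarboxylase that starts glycine cleavage (chromosome 19, 30098449 to 30175418), was 99.1, 78.5 and 83.2 FPKM in the control iPSCs. The YAP-culture iPSCs had 97.9, 87.8 and 138 FPKM, and the colonies 17.6, 17.9 and 22.6 FPKM. Every colony value lay below every iPSC value. Gldc fell, with log2 fold changes of -2.40 ± 0.18 against the YAP-culture iPSCs (limma, adjusted p = 6.31e-06) and -2.11 ± 0.18 against the control iPSCs (adjusted p = 1.33e-05).

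The partners of both enzymes were read from a list of 8 glycine, threonine and serine breakdown genes, of which 4 passed the expression filter of a mean of 1 FPKM over all libraries. Amt, the aminomethyltransferase of glycine cleavage, was 41.8 ± 2.37 FPKM in the control iPSCs, 42.4 ± 2.94 in the YAP-culture iPSCs and 3.36 ± 2.05 in the colonies (SD, n = 3 each). Gcsh, the lipoyl-carrying protein of the system, was 109 ± 5.54, 116 ± 14.5 and 41.3 ± 5.14 FPKM in the same order. Both fell against each iPSC group, with limma adjusted p of at most 1.92e-05. Dld, the dehydrogenase that glycine cleavage shares with the pyruvate and ketoglutarate complexes, was 46.1 ± 4.05, 56.5 ± 6.64 and 58.5 ± 4.33 FPKM and was not called. Gcat, which takes the product of Tdh on to glycine, was 13.4 ± 1.46 FPKM in the control iPSCs, 9.27 ± 4.65 in the YAP-culture iPSCs and 10.4 ± 1.98 in the colonies, and was not called either. Tdh and Gcat, which act in sequence, thus had different patterns: the log2 fold changes of Gcat in the colonies were 0.23 ± 0.27 against the YAP-culture iPSCs and -0.35 ± 0.27 against the control iPSCs. Gcat was 6.78, 6.40 and 14.6 FPKM in YAP-culture iPSC replicates 1 to 3. Every colony value, 8.66 to 12.6 FPKM, lay above replicates 1 and 2. Gcat was also not called without YAP-culture iPSC replicate 3. Of the other genes of the list, Sds and Srr were listed at 0 in all libraries, and Sdsl and Glyctk were below the filter.

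**Figure D1:**
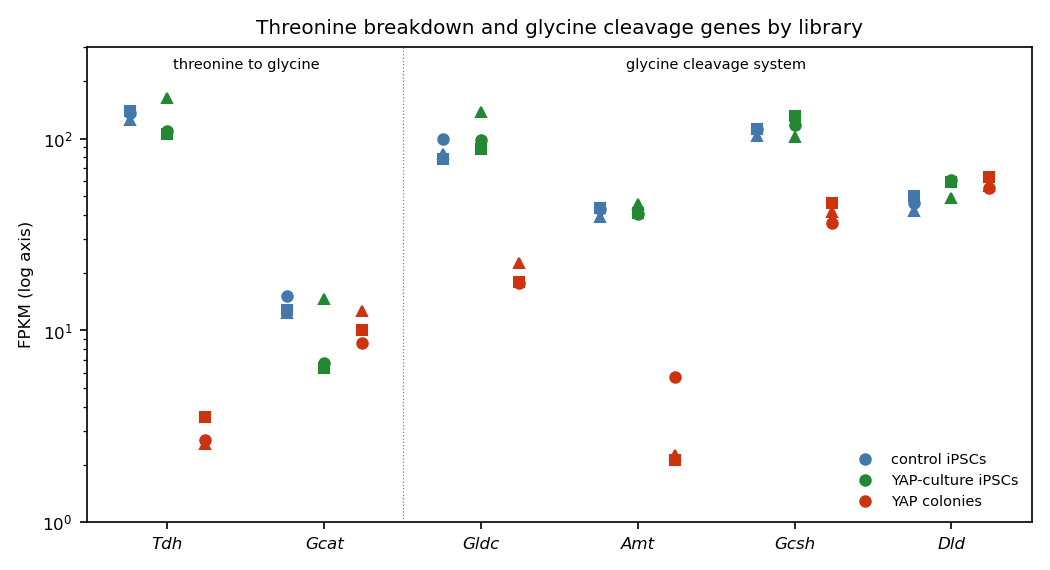
FPKM on a log axis of the threonine genes Tdh and Gcat and the glycine cleavage genes Gldc, Amt, Gcsh and Dld, with 1 point per library (circle, square and triangle for replicates 1, 2 and 3; blue, control iPSCs; green, YAP-culture iPSCs; red, YAP colonies). The colonies lie apart from the iPSCs for Tdh, Gldc, Amt and Gcsh, and among the iPSC values for Gcat.

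Mthfd2, the mitochondrial methylenetetrahydrofolate dehydrogenase (chromosome 6, 83305691 to 83325908), was 47.0, 54.6 and 46.4 FPKM in the control iPSCs. The YAP-culture iPSCs had 66.0, 76.1 and 87.1 FPKM, and the colonies 7.32, 14.8 and 13.8 FPKM. None of the 3 groups overlapped another, and colony replicate 1 had the lowest value. Mthfd2 fell in the colonies, with log2 fold changes of -2.62 ± 0.23 against the YAP-culture iPSCs (limma, adjusted p = 1.63e-05) and -2.01 ± 0.23 against the control iPSCs (adjusted p = 8.43e-05). A gene model, Gm43890, lies inside the gene on the same strand with at most 1.69 FPKM.

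The serine hydroxymethyltransferases, which feed that carbon unit in, differed less. Shmt1, the cytosolic enzyme (chromosome 11, 60788104 to 60811718), was 120, 106 and 101 FPKM in the control iPSCs, 78.4, 76.6 and 100 FPKM in the YAP-culture iPSCs and 57.1, 63.2 and 65.4 FPKM in the colonies. The colony values lay below all iPSC values. The log2 fold changes of -0.45 ± 0.13 (limma, adjusted p = 0.0156) and -0.81 ± 0.13 (adjusted p = 6.25e-04) against the YAP-culture and control iPSCs did not reach the fold threshold of 1. Shmt2, the mitochondrial enzyme (chromosome 10, 127517123 to 127522444), was 55.8, 49.7 and 45.5 FPKM in the control iPSCs, 36.2, 35.6 and 68.9 FPKM in the YAP-culture iPSCs and 35.5, 52.7 and 54.4 FPKM in the colonies. All 3 groups overlapped. The log2 fold change of Shmt2 in the colonies was 0.06 with a 95% interval of -0.54 to 0.67 against the YAP-culture iPSCs, and -0.10 (-0.71 to 0.51) against the control iPSCs. Its sign turned in 4 of 20 alternatives in each comparison, and larger differences within these intervals were not detectable with 3 libraries a group. Shmt2 and Mthfd2 both act in mitochondrial folate metabolism and stood at 50.3 ± 5.19 and 49.3 ± 4.59 FPKM in the control iPSCs, against 47.5 ± 10.5 and 11.96 ± 4.05 FPKM in the colonies.

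Among the serine synthesis genes Psat1 was lowest in the colonies, while the colony values of Phgdh lay among those of the iPSCs. Psat1, the phosphoserine aminotransferase (chromosome 19, 15904678 to 15947337), was 125, 143 and 116 FPKM in the control iPSCs, 161, 190 and 176 FPKM in the YAP-culture iPSCs and 78.1, 90.1 and 87.9 FPKM in the colonies. The 3 groups did not overlap. Psat1 fell against the YAP-culture iPSCs with a log2 fold change of -1.03 ± 0.12 (limma, adjusted p = 7.16e-05), close to the fold threshold. In 6 of 20 alternatives its value lay between -0.998 and -0.89 and it was not called, as without colony replicate 1 (-0.97) or YAP-culture iPSC replicate 2 (-0.97). Against the control iPSCs the log2 fold change was -0.58 ± 0.12 (adjusted p = 2.38e-03) and Psat1 was not called. Phgdh, the dehydrogenase that opens the pathway (chromosome 3, 98313170 to 98339990), was 24.5, 22.1 and 20.2 FPKM in the control iPSCs, 14.9, 13.99 and 31.7 FPKM in the YAP-culture iPSCs and 20.9, 27.3 and 26.5 FPKM in the colonies. The colonies overlapped both iPSC groups. Its log2 fold change in the colonies was 0.38 (95% interval -0.25 to 1.01) against the YAP-culture iPSCs and 0.15 (-0.48 to 0.78) against the control iPSCs. The first value was 0.74 without YAP-culture iPSC replicate 3 (limma, adjusted p = 2.06e-03) and 0.74 with array weights, which weight libraries by their agreement (adjusted p = 6.61e-04), both under the fold threshold. The pseudogene Phgdh-ps1 had at most 0.139 FPKM.

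Psph, the phosphoserine phosphatase that finishes serine synthesis (chromosome 5, 129765558 to 129787449), was listed at 0 in all 9 libraries. Whether such a 0 is a measurement or an estimate that failed is not known, and 315 rows combined a 0 with values above 20 FPKM elsewhere. The row of Cct6a, a chaperonin subunit gene on the opposite strand that overlaps the first 452 bases of Psph, held 238 to 428 FPKM. Psph therefore entered no test, and 8 members remained for counting once Cth was set aside.

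In the transsulfuration route, Cbs was low throughout. Cbs, cystathionine beta-synthase (chromosome 17, 31612623 to 31637199), was 14.8, 11.1 and 11.5 FPKM in the control iPSCs, 7.18, 9.58 and 14.2 FPKM in the YAP-culture iPSCs and 4.81, 5.82 and 8.06 FPKM in the colonies. The colonies lay below the control iPSCs and overlapped the YAP-culture iPSCs. The log2 fold changes were -0.91 ± 0.25 (limma, adjusted p = 0.0107) against the control iPSCs and -0.62 ± 0.25 (adjusted p = 0.0547) against the YAP-culture iPSCs, and neither was called. The latter was -0.39 without YAP-culture iPSC replicate 3 and -0.18 with array weights. Against the control iPSCs it was called with a pseudocount of 0.1 (-1.01) and without colony replicate 3 (-1.09).

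RefSeq promoters of build GRCm38.p6, reaching from 250 bases before to 50 after the start, were on hand for 8 of the members on 9 starts. They were searched for the E-box CACGTG, a palindrome that MYC-family factors bind, and on both strands for TGATGNAA, the core of the element that ATF4 and C/EBP factors bind. The E-box stood in 1 of the 9, that of Cbs, and in 7.15% of all 32851 promoters. TGATGNAA stood in none of the 9 and in 3.97% of all promoters. At such shares 9 promoters are too few to tell the members from all promoters, so nothing is drawn from these counts. Members without a promoter on hand were not searched. The 250 bases before the start of Cbs (chr17:31637206-31637455, minus strand, 5′ to 3′) are shown because they hold the 1 match, in capitals, which begins 229 bases before the start.
Cbs: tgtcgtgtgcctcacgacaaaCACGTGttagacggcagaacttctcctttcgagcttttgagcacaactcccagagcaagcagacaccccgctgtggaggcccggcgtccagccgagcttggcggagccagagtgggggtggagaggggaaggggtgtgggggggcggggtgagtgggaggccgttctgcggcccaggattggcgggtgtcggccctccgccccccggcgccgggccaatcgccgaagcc

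Cth, the cystathionine gamma-lyase that releases cysteine (chromosome 3, 157894248 to 157925077), had an order of groups unlike that of the other members. It was 14.3, 17.5 and 12.1 FPKM in the control iPSCs, 64.2, 87.2 and 72.6 FPKM in the YAP-culture iPSCs and 40.5, 43.3 and 31.1 FPKM in the colonies. The 3 groups did not overlap, with the YAP-culture iPSCs highest and the control iPSCs lowest. The mean of the YAP-culture iPSCs was 5.10-fold, and that of the colonies 2.62-fold, the mean of the control iPSCs. The other members whose iPSC groups did not overlap were Mthfd2, Psat1 and Shmt1, with YAP-culture to control ratios of 1.55, 1.37 and 0.781, and all 3 were lowest in the colonies. How many of all rows had iPSC groups without overlap was not counted, so nothing is drawn from that number of members. The gene model Gm43314, inside Cth on the same strand, was at most 0.161 FPKM in the control iPSCs, 0.715 to 1.38 FPKM in the YAP-culture iPSCs and 0.718 to 0.928 FPKM in the colonies. Whether its reads belong to Cth cannot be told in this unit.

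**Figure D2:**
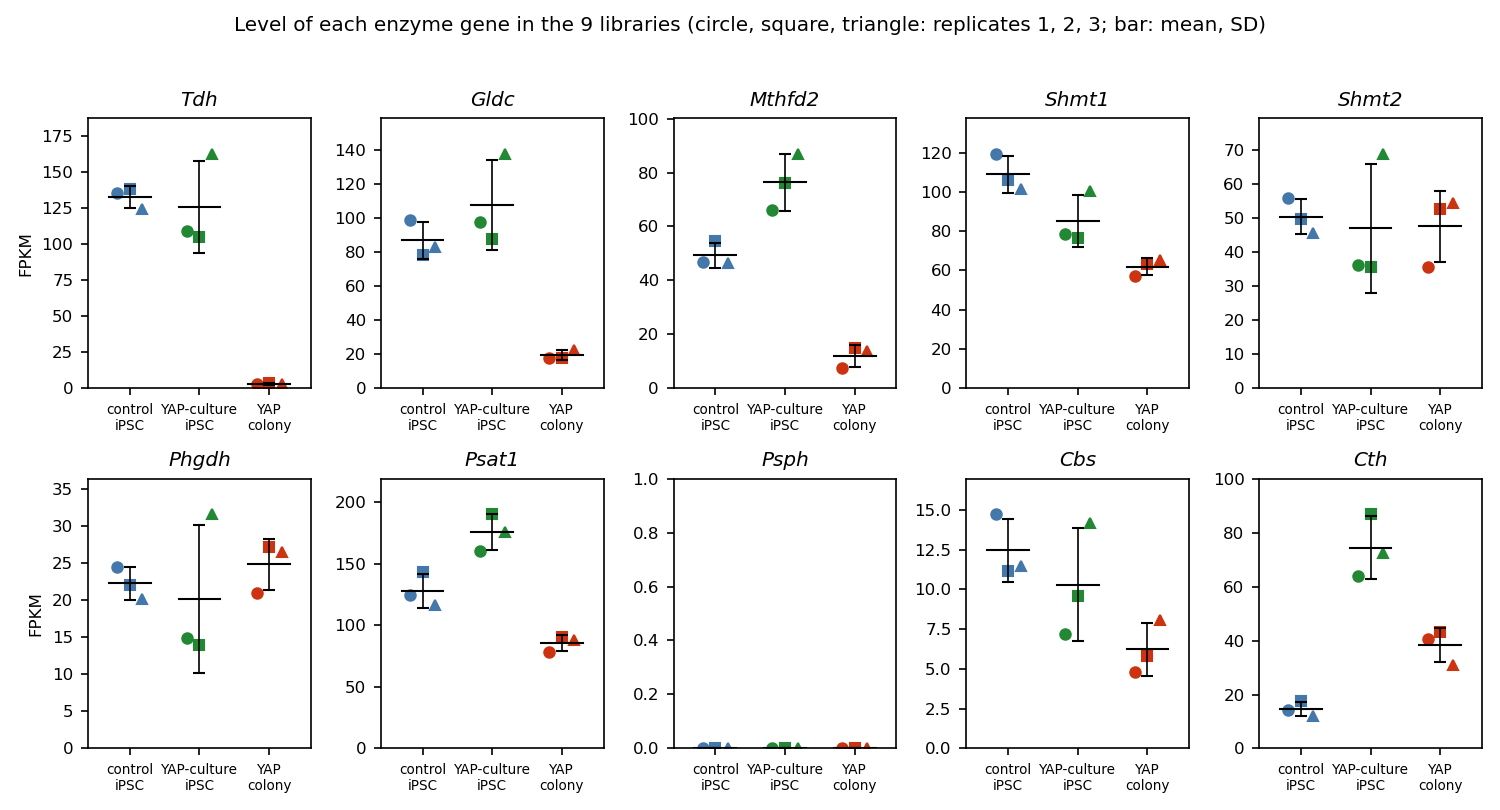
FPKM of the 10 genes on linear axes from 0, with 1 point per library (circle, square and triangle for replicates 1, 2 and 3) and black bars for the mean and SD of 3 libraries. Tdh falls from over 100 FPKM in every iPSC library to under 4 FPKM in the colonies, and Cth is highest in the YAP-culture iPSCs.

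Counted over the 8 tested members other than Cth, limma called 4 lower in the colonies than in the YAP-culture iPSCs (Tdh, Gldc, Mthfd2 and Psat1) and 0 higher, with calls made at an adjusted p below 0.05 together with a log2 fold change of 1 or more in size. Of all 13808 tested rows 14.5% were called lower and 15.8% higher in that comparison. At an unadjusted p below 0.05, 6 members were lower and 0 higher. The share of all rows at that unadjusted level was not counted, so such counts have no background to be read against. Against the control iPSCs 3 members were called lower (Tdh, Gldc and Mthfd2) and 0 higher, where 17.0% and 14.9% of all rows were called lower and higher, and again 6 were lower and 0 higher at an unadjusted p below 0.05. The members' median log2 fold change was -0.83 against the YAP-culture iPSCs and -0.86 against the control iPSCs, beside 0.02 and -0.07 over all tested rows. Both comparisons use the same colony libraries. Without control and YAP-culture iPSC replicates 3 the counts were the same.

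**Figure D3:**
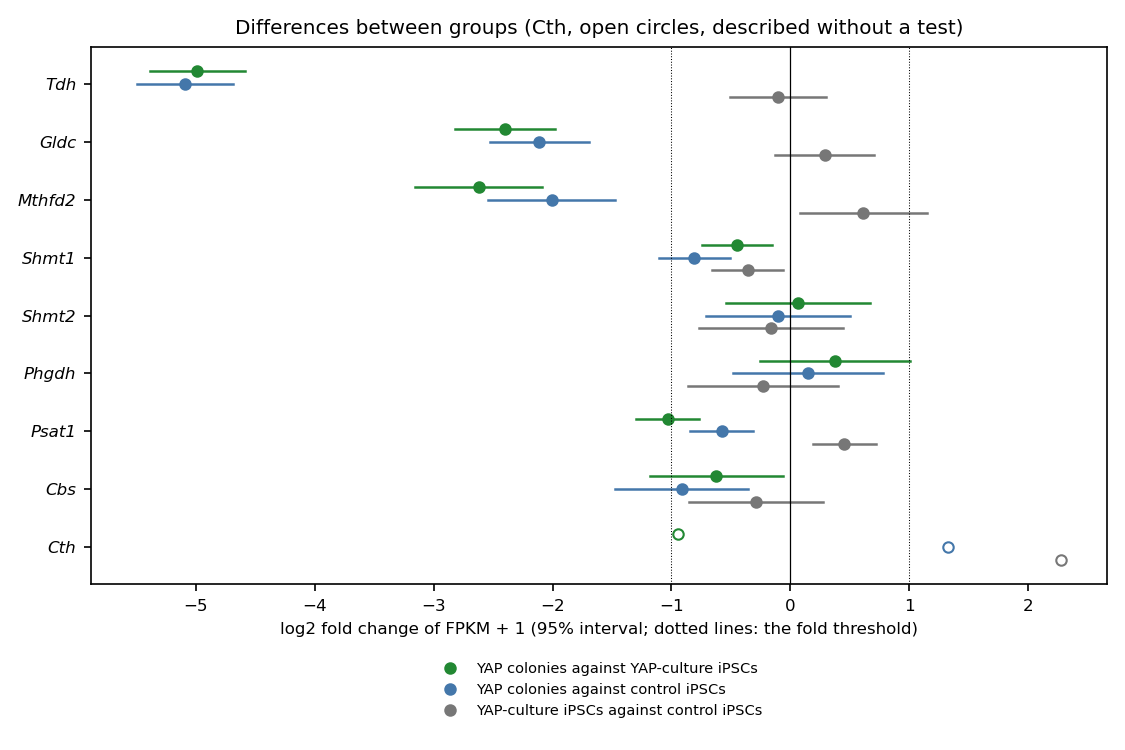
Log2 fold changes of FPKM + 1 with 95% intervals from the limma fit for the 8 tested members in 3 comparisons, and the fitted differences of Cth as open circles with no interval. Dotted lines mark the fold threshold of 1. The intervals of Tdh, Gldc and Mthfd2 lie wholly below -1 in both colony comparisons, and those of Shmt2 and Phgdh span 0 in all 3.

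The comparison of YAP-culture with control iPSCs called 0 of the 8 tested members in limma, where 0.507% of all rows were called higher and 0.884% lower. At an unadjusted p below 0.05, Mthfd2 (0.62 ± 0.23) and Psat1 (0.46 ± 0.12) were higher and Shmt1 (-0.36 ± 0.13) lower, with adjusted p of 0.126, 0.0612 and 0.116. Tdh had a log2 fold change of -0.10 (95% interval -0.51 to 0.30) and Gldc of 0.29 (-0.13 to 0.71). The fitted difference of Cth, which chose it, was 2.28.

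The YAP-culture iPSC libraries were not alike in these genes. Nor were they alike as whole libraries: replicate 2 had 50.8% of its FPKM on pseudogenes, against 42.7% and 41.5% in replicates 1 and 3. It also had fewer rows above 0, 19006 against 21587 and 20803. Replicate 3 was above both other libraries of its group for 7 of the 9 members with values, where 50.3% of all tested rows were. Its ratio to the mean of replicates 1 and 2 was 2.19 for Phgdh, 1.92 for Shmt2, 1.69 for Cbs and 1.52 for Tdh, against a median of 1.10 over all tested rows. For Psat1 and Cth the ratios were 1.00 and 0.96. Replicates 1 and 2 lay below every control library for Tdh, Shmt1, Shmt2, Phgdh and Cbs. Without replicate 3, Phgdh had a log2 fold change of -0.59 against the control iPSCs (limma, adjusted p = 0.0150), Shmt1 of -0.48 (adjusted p = 0.0112) and Shmt2 of -0.47 (adjusted p = 0.0839), and the number of members called was still 0. With all libraries the values of Phgdh and Shmt2 were -0.23 and -0.16. The values of Tdh, Gldc and Cbs, which were -0.10, 0.29 and -0.29 with all libraries, were -0.30, 0.10 and -0.52 without it.

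**Figure D4:**
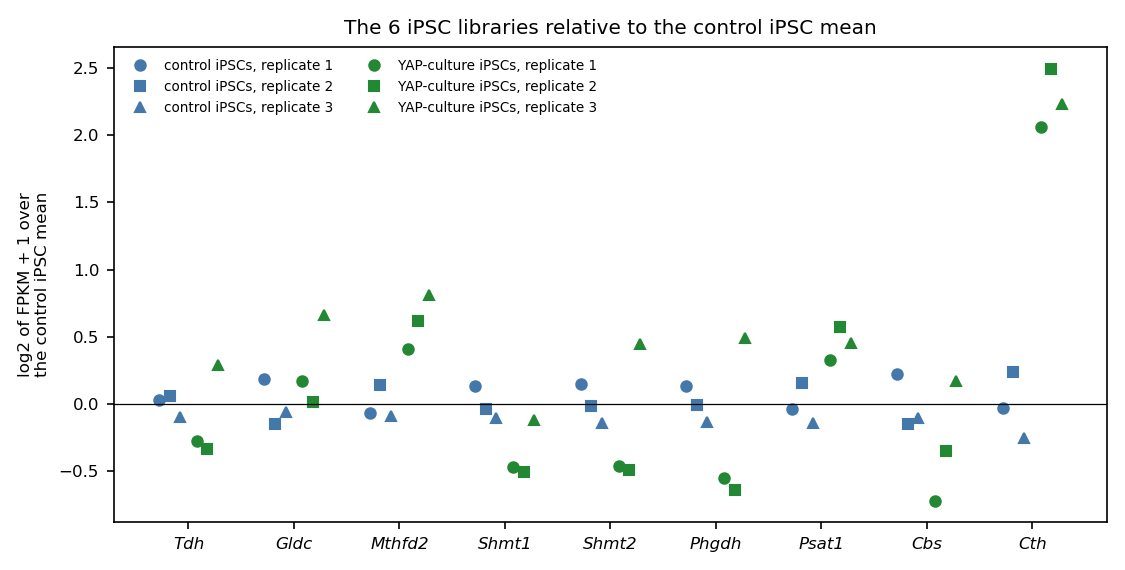
Log2 of FPKM + 1 in each of the 6 iPSC libraries over that of the control iPSC mean, for the 9 members above 0 (blue, control; green, YAP-culture; circle, square and triangle for replicates 1, 2 and 3). YAP-culture replicate 3 (green triangle) lies above replicates 1 and 2 for 7 members, and between them for Psat1 and Cth.

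The order of levels, which FPKM allows since it is per length, also differed. Tdh at 133 ± 7.49 FPKM and Psat1 at 128 ± 13.6 led in the control iPSCs and did not differ beyond their spread, followed by Shmt1 at 109 ± 9.49 and Gldc at 86.9 ± 10.8 FPKM. In the YAP-culture iPSCs Psat1 led at 176 ± 14.9 FPKM, and Tdh at 126 ± 32.2 and Gldc at 108 ± 26.6 FPKM lay within each other's spread. Shmt1 at 85.2 ± 13.3, Mthfd2 at 76.4 ± 10.6 and Cth at 74.6 ± 11.6 FPKM were also within their spread there. In the colonies Psat1 led at 85.4 ± 6.36 FPKM, then Shmt1 at 61.9 ± 4.33, Shmt2 at 47.5 ± 10.5 and Cth at 38.3 ± 6.37 FPKM. The order of Shmt2 and Cth was turned in colony replicate 1, at 35.5 and 40.5 FPKM. Tdh, at 2.94 ± 0.543 FPKM, was the lowest of the 9 in the colonies.

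Genes around these enzymes were read from 5 lists of 60 genes, of which 48 were tested. Of all rows, the colonies had 15.8% called higher and 14.5% lower against the YAP-culture iPSCs, and 14.9% and 17.0% against the control iPSCs. The counts of each list are to be read beside these shares. In the folate list of 18 genes, 16 were tested. Against the YAP-culture iPSCs 3 rose in the colonies and 2 fell, with a list median of -0.54. Mthfd2l, a mitochondrial relative of Mthfd2, was 13.6 ± 2.33 FPKM in the colonies against 1.42 ± 1.14 in the YAP-culture and 1.62 ± 0.292 in the control iPSCs, and rose by 2.69 ± 0.29 and 2.48 ± 0.29 on the log2 scale. Mtr, the methionine synthase that takes methyl folate, rose to 32.1 ± 1.203 FPKM from 11.95 ± 0.449 in the YAP-culture and 10.1 ± 0.735 in the control iPSCs. Slc19a1, a folate carrier named after its values were seen, also rose, by 1.03 ± 0.24, at the edge of the fold threshold. It was not called in 6 of 20 alternatives, among them those that left out colony replicate 3 or replicate 1 or 2 of the YAP-culture iPSCs. Aldh1l1, which oxidises formyl folate in the cytosol, was 0.168 ± 0.0746 FPKM in the colonies against 6.29 ± 1.46 and 6.73 ± 0.189. Gart, a purine synthesis enzyme that uses formyl folate, was 54.9 ± 5.99 against 123 ± 22.6 and 137 ± 13.7 FPKM. Against the control iPSCs 2 rose (Mthfd2l and Mtr) and 3 fell (Aldh1l1, Gart and Fpgs), with a list median of -0.46. Fpgs, which adds glutamates to folate, had 31.1 ± 4.83 FPKM in the control iPSCs and 11.7 ± 2.51 in the colonies.

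The methionine and cysteine lists hold the genes on either side of Cbs and Cth. Of 7 tested methionine cycle genes limma called 0 against the YAP-culture iPSCs. At an unadjusted p below 0.05 there were 4, a level at which the share of all rows was not counted. The 2 that fell against the control iPSCs were Ahcy, which hydrolyses S-adenosylhomocysteine, with a log2 fold change of -1.08 ± 0.16, and Gnmt, a glycine methyltransferase, with -1.31 ± 0.22. Ahcy was not called in 4 of 20 alternatives, among them the one without colony replicate 1, and Gnmt was not called with a pseudocount of 5 or quantile normalization. The list medians were -0.10 and 0.09. In the list of cysteine, sulfide and glutathione genes 9 of 11 were tested. Slc7a11, the cystine importer, rose to 3.49 ± 0.852 FPKM from 0.691 ± 0.0983 and 0.706 ± 0.0338. It passed the expression filter through the colonies alone, and was not called with a pseudocount of 5. Cdo1, which oxidises cysteine, fell to 0.892 ± 0.288 FPKM from 10.7 ± 0.504 and 8.43 ± 0.954. Gss, glutathione synthetase, fell against the control iPSCs as well, from 26.9 ± 2.28 FPKM, with a log2 fold change of -1.003, at the edge of the fold threshold, and was not called in 7 of 20 alternatives, among them those without control iPSC replicate 1, control iPSC replicate 2 or colony replicate 1. Gclm, the regulatory subunit of the enzyme before Gss, was listed at 0 in all libraries.

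The list of the ATF4 axis, named for the stress-response factor that is known to drive genes of serine synthesis and transsulfuration, had 12 tested genes. Against the YAP-culture iPSCs 5 fell and 2 rose in the colonies, and against the control iPSCs 4 fell and 3 rose. Among those that fell, Trib3 and Chac1 passed the expression filter through the iPSCs alone, and their falls are a description. Asns, asparagine synthetase and a common ATF4 target, was 52.4 ± 3.44 FPKM in the colonies, 444 ± 29.5 in the YAP-culture iPSCs and 272 ± 40.2 in the control iPSCs. Trib3, a pseudokinase gene, was 0.315 ± 0.138 FPKM in the colonies against 8.66 ± 4.03 and 7.97 ± 1.23. Atf4 itself was 61.0 ± 7.43 FPKM in the colonies, 188 ± 22.6 in the YAP-culture and 140 ± 10.8 in the control iPSCs. Of the other genes that fell, Chac1, a glutathione-degrading enzyme, did so in both comparisons. Nupr1 did so against the YAP-culture iPSCs, though in 5 of 20 alternatives it was not called, among them those that left out colony replicate 1 or replicate 3 of the YAP-culture iPSCs, and Stc2 rose against the control iPSCs. Atf4 and these 3 were named after their values were seen. Ddit4, an mTOR inhibitor, and Atf3, a related transcription factor, rose in both comparisons, to 61.7 ± 7.75 and 6.47 ± 0.889 FPKM in the colonies. The list medians were -0.36 and -0.04. Ddit3 was listed at 0 in all libraries.

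Over the 5 lists together, 6 of 48 tested genes rose and 10 fell against the YAP-culture iPSCs, and 6 rose and 13 fell against the control iPSCs, shares to be read beside the same 15.8%, 14.5%, 14.9% and 17.0% of all rows. Aldh1l1, Cdo1, Gnmt, Chac1 and Trib3 had colony means under 1 FPKM and passed the expression filter through the iPSCs alone. Their falls, like the rise of Slc7a11, are a description. Atf5, named after its values were seen, passed through colony replicate 1 alone (13.3 FPKM), was listed at 0 in every other library and was not called. Between the iPSC groups limma called 0 of the 48 and 15 had an unadjusted p below 0.05. The share of all rows at that unadjusted level was not counted, so nothing is drawn from the 15. Asns and Atf3 had log2 fold changes of 0.71 ± 0.12 (adjusted p = 0.0246) and 0.88 ± 0.16 (adjusted p = 0.0273) there, below the fold threshold. Atf3 and Chac1 were each called higher in 3 of 20 alternatives, for Atf3 also without control iPSC replicate 2. Without YAP-culture iPSC replicate 3, 2 of the 48 genes, Fpgs and Mpst, were called lower in the YAP-culture iPSCs, where 909 of all 13808 rows were. The genes of this comparison were named after their values were seen.

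**Figure D5:**
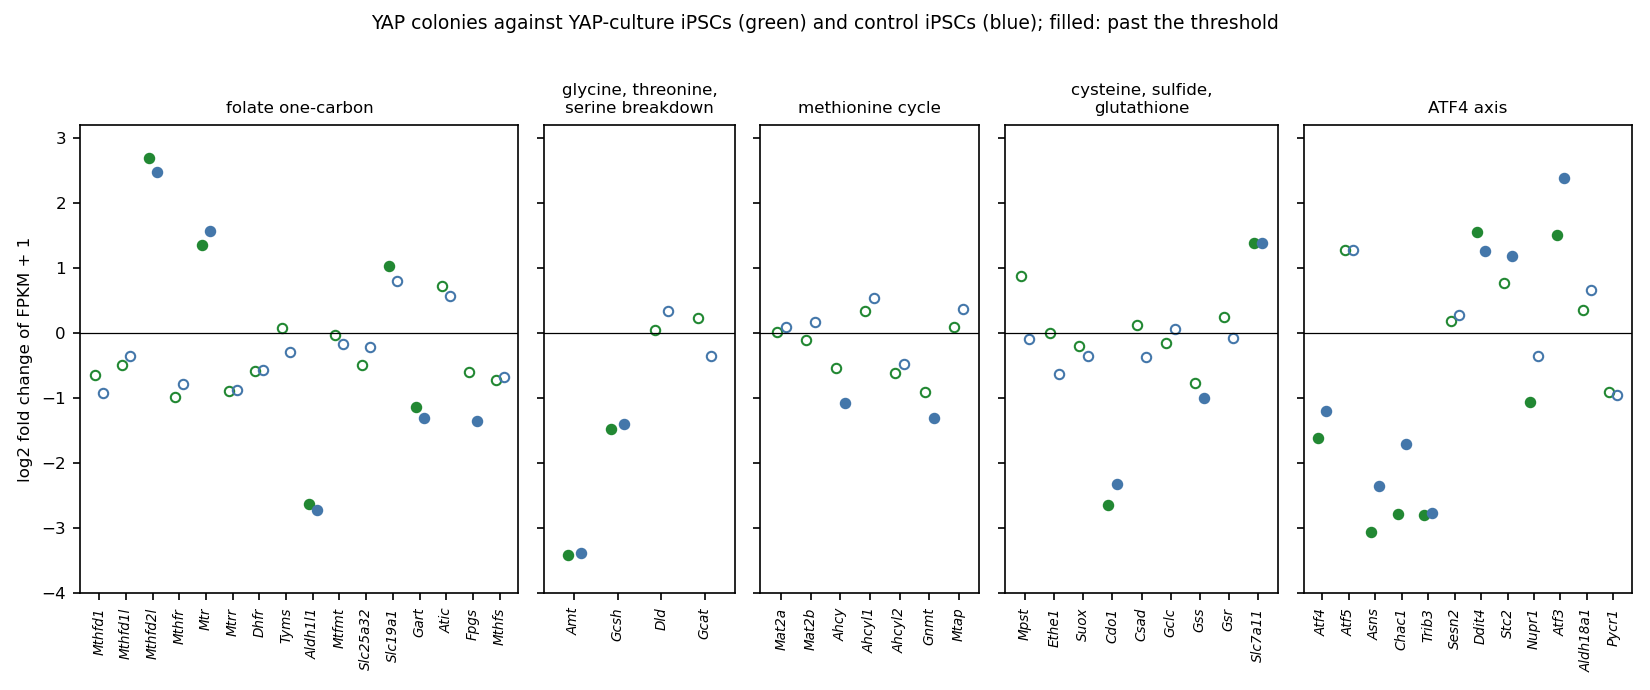
Log2 fold changes of FPKM + 1 in YAP colonies against YAP-culture iPSCs (green) and control iPSCs (blue) for the 48 tested genes of the 5 lists; filled points passed the threshold. Amt (-3.41) and Asns (-3.06) lie lowest and Mthfd2l (2.69) highest.

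Likeness of pattern was measured as the Pearson correlation of log2(FPKM + 1) over the 9 libraries, among 5490 named autosomal genes outside the members and lists with a mean of at least 10 FPKM. The points share their libraries, and for Tdh they form 2 sets, iPSCs and colonies, so high values are common: 120 genes exceeded 0.99. The 3 nearest to Tdh were Tcl1 (r = 0.9993), Gdf3 (0.9993) and Pycard (0.9989), and each was also highest in YAP-culture iPSC replicate 3 among all libraries. With Cth, 0 genes exceeded 0.99. The nearest were Slc31a1, a copper transporter gene (r = 0.964), Nid1, a basement membrane gene (0.963), and Sfrp1, a WNT antagonist gene (0.957). Slc31a1 was 17.5 to 22.3 FPKM in the control iPSCs, 29.6 to 35.9 FPKM in the YAP-culture iPSCs and 26.9 to 29.3 FPKM in the colonies.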

How the data were processed

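Polyadenylated RNA of 9 mouse samples was extracted with Trizol and sequenced after a stranded mRNA kit, per the labels' protocols. TopHat, Cufflinks and mm10 are named in the submitters' processing notes, and their versions and settings are not given in the sources used here. FPKM values are as the authors deposited them, 1 per gene and library. Whether counting used strand is not stated. Of the FPKM of a library, 37.5% to 50.8% lay on pseudogenes, the most in YAP-culture iPSC replicate 2. Coordinates count from 1. Columns were matched to samples by heading and replicate number.

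Values were transformed as log2(FPKM + 1). The 13808 rows whose mean reached 1 FPKM entered limma 3.58.1 (R 4.3.3), all groups in 1 model whose variance prior followed the mean level. Benjamini-Hochberg adjustment covered all of these rows. "Rose" and "fell" mean called. The fit was checked on simulated data. From each list the 2 called genes with the largest change in each direction and comparison are named. Members and lists were chosen with earlier results of these data known. Alternatives were pseudocounts, filters, scalings, a replicate block, fits of the compared groups alone, weights per library and libraries left out; rescaled protein-coding rows were added after seeing the data.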

Additional observations from a re-analysis of the deposited data

How the results depend on the processing

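The counts of members called were within 1.5 times the reported counts under all 20 alternatives. Leaving out 1 library gave 3 to 4 members lower in the colonies in either comparison and 0 to 0 between the iPSC groups. Tdh, Gldc and Mthfd2 were called in both colony comparisons under every alternative, with log2 fold changes of -5.46 to -4.02, -2.53 to -1.92 and -2.79 to -1.71. Psat1 against the YAP-culture iPSCs was not called with a pseudocount of 5 (-0.998), quantile normalization (-0.94), array weights (-0.89), rescaled protein-coding rows (-0.99) or without either of the 2 libraries named above, and the cause was not tested. Shmt2, near 0, turned sign against the control iPSCs with quantile normalization (0.056), array weights (0.018), rescaled protein-coding rows (0.033) and without colony replicate 1 (0.093), and leaving out 1 library gave -0.208 to 0.093. Against the YAP-culture iPSCs it turned in 4 alternatives that left out 1 library, the whole range of such values being -0.096 to 0.370 (-0.084 and -0.096 without YAP-culture iPSC replicate 1 or 2, -0.023 and -0.044 without colony replicate 2 or 3). Tdh between the iPSC groups turned to 0.017 with quantile normalization, and leaving out 1 library gave -0.304 to 0.010, the highest without YAP-culture iPSC replicate 2. The difference of Cth between the iPSC groups was 2.02 with a pseudocount of 5.

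Keeping the 11412 protein-coding rows and rescaling them, which changes both the rows and the scale, gave a median log2 fold change 0.15 above that of all rows for the colonies against the control iPSCs, and 2137 rows called higher and 1728 lower in place of 2051 and 2345. Of the list genes, Atf4 against the control iPSCs was not called with quantile normalization, and Chac1 and Stc2 against the control and Atf3 against the YAP-culture iPSCs not with a pseudocount of 5. The number of rows called between the iPSC groups was 192 and ranged from 36 (compared groups alone) to 1048 (without YAP-culture iPSC replicate 3), with 922 under array weights and 57 under a pseudocount of 5. For the colonies it was 4184 against the YAP-culture and 4396 against the control iPSCs, 2108 and 2259 with a pseudocount of 5, and 2421 and 2599 with a minimum mean of 5 FPKM, which tests fewer genes. Same-numbered libraries did not deviate together (correlations of -0.14 to 0.19, over 0.1 in 2 of 9 pairs), so the numbers were not used as pairs. With a replicate block the members called lower were 4 and 3 in the colony comparisons. FPKM give no depth, so no counting error is stated, and differences under the fold threshold were often not detectable with 3 libraries a group.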
